A study of Mus musculus with 2 samples.

Results

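Dio2 and 4 further genes of thyroid hormone handling, Thra, Thrb, Thrsp and Slc16a10, were described in the snRNA-seq of brown adipose tissue (BAT) from mice that lack the splicing factor SRSF1 in their adipocytes. The 5 genes were taken by symbol from the 32285 genes of the deposited count matrices, and all 5 were found and had at least 50 UMIs over both libraries in each of the 5 cell classes described. A UMI is the tag that marks each captured RNA molecule, and a level is given as CPM, the UMIs of a gene per 1000000 UMIs of all nuclei of a class in a library. The WT library came from the interscapular BAT of SRSF1 flox/flox mice without Cre, and the KO library from Adipoq-Cre; SRSF1 flox/flox mice. Both were 8 weeks old, and both carried the floxed allele. The Adipoq promoter is active in mature adipocytes, so the Cre is not directed at the other cells of the tissue. Each genotype was represented by 1 library, and how many mice it pooled is not given, so no test or replicate error could be had. All intervals below are 95% intervals that cover counting error only, and a difference between WT and KO cannot be told apart from a difference between the 2 libraries.

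Thyroxine, the main hormone that the thyroid releases, has little activity until an outer ring iodine is removed to give T3. In brown fat this step is carried out by the type 2 deiodinase, a selenoprotein of the endoplasmic reticulum encoded by Dio2, whose gene is induced by noradrenaline through cAMP. T3 binds the nuclear receptors TRα (Thra) and TRβ (Thrb), which act with retinoid X receptors, corepressors and coactivators on genes such as Thrsp, which encodes the lipogenesis-linked nuclear protein Spot 14. Slc16a10 encodes a membrane transporter of aromatic amino acids and thyroid hormones, and Ppargc1a encodes the coactivator PGC-1α, which is induced by the same adrenergic signal.

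The WT library held 93102814 UMIs in 12846 barcodes and the KO library 80090208 UMIs in 11495, and 52 barcodes were found in both. Cell classes were called nucleus by nucleus from summed marker genes, which included none of the 5 genes and no thermogenic gene. This gave 5706 WT and 2302 KO adipocyte nuclei, 143 and 1140 adipose stem/progenitor cells (ASPCs), 1210 and 665 endothelial, 401 and 3096 immune and 251 and 160 mural nuclei. A further 48 WT and 14 KO nuclei were called Schwann, 13 and 12 skeletal muscle and 8 and 11 red cell, and these small classes are given apart, so that levels and orders below are over the 5 larger classes. In both libraries all 10 markers of each of the 5 larger classes were highest in their own class. The calls were made from these same markers, so this is not an independent check. The median mitochondrial share of UMIs was 1.10% in WT and 0.0491% in KO, and 4991 WT and 3978 KO nuclei were left without a class, of which 3372 and 1653 had under 1500 UMIs. Srsf1 itself was at 176 CPM in WT and 61.9 CPM in KO adipocyte nuclei, a log2 ratio of -1.51 (-1.59 to -1.42), and at 94.8 and 82.8 CPM in ASPCs (-0.20, -0.54 to 0.17). It was also lower in KO in endothelial (-0.56, -0.83 to -0.30), immune (-0.38, -0.61 to -0.14) and mural nuclei (-0.57, -1.04 to -0.12), to which the Cre is not directed. Whether the counted 3′ ends of Srsf1 lie within the floxed part is not given in the sources used here.

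The adipocyte nuclei of the libraries stood apart. Both libraries were clustered without mitochondrial and thyroid hormone pathway genes, and a cluster was called adipocyte where these markers led by at least 2 times. Of these clusters, 5 held 5660 of the WT and 4 of the KO adipocyte nuclei, and the remaining one held 3 WT and 1851 KO. Another 284 KO and 3 WT adipocyte nuclei lay in a cluster of 92 WT and 1419 KO nuclei whose summed markers did not single out a class, and 42 KO in one of 12 WT and 870 KO nuclei. The cluster called ASPC held 97 KO and 11 WT adipocyte nuclei and the one called mural 13 KO, and the rest lay in other clusters. The comparisons within adipocyte nuclei below are therefore largely between nuclei of different clusters, and genotype and library cannot be told apart in them.

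Free RNA from broken cells gives UMIs of adipocyte genes in other nuclei, and its size was read from genes that mark adipocytes. The same markers made the class calls, and another class needed a scaled marker sum at least 2 times the adipocyte one. The calling rule thus limits how high the adipocyte markers could be in other classes. In WT, the summed adipocyte markers in ASPC, immune, mural and endothelial nuclei were at 11.5%, 14.6%, 25.9% and 26.6% of their level in adipocyte nuclei, with all 10 markers above 0 in each. Pparg, which encodes a nuclear receptor of fat cell formation and made up much of this sum, was alone at 39.0% in mural and 39.1% in endothelial nuclei. Without it, the other 9 markers were at 11.5%, 15.9%, 16.7% and 17.8% in WT and at 5.45%, 14.7%, 6.53% and 8.90% in KO, a sum taken after the values were seen. Ucp1, which encodes the uncoupling protein of brown fat, was at 19.7% to 33.4% of its adipocyte level in these classes, Cidea, which encodes a lipid droplet protein, at 15.2% to 22.2%, and Ppargc1a at 7.02% to 10.5%. A member gene at such a share in another class cannot be told from this background.

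Dio2 (ENSMUSG00000007682) lies on the minus strand of chromosome 12, from 90724552 to 90738438 in GRCm38. The 250 bases before its RefSeq start site (GRCm38.p6, chr12:90739039-90739288, minus strand) are shown because they hold the cAMP response element for which the gene is known, here in capitals.

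Dio2: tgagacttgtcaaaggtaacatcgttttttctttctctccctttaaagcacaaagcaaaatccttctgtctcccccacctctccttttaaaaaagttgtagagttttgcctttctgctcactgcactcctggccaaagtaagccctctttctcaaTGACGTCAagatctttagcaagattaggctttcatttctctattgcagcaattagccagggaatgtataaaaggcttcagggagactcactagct

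The palindromic element TGACGTCA starts at position -95, and TATAAA, searched on the gene's strand, at -30. Of 32851 RefSeq promoter windows of this length, 508 (1.55%) hold TGACGTCA and 7.59% hold TATAAA. Promoter windows were matched for 4 of the 5 genes and not for Thra. TGACGTCA was not found in the windows of Thrsp, Slc16a10 or either start site of Thrb. The letters AGGTCA, the core that thyroid hormone receptors bind, were found on either strand in 14.02% of all windows and, among these genes, in the window of the upstream Thrb start site alone, at -184. These are matches of letters and say nothing of binding in these nuclei.

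Dio2 was abundant in WT adipocyte nuclei and close to absent from the KO library. It was at 536.8 CPM (531 to 542.7, 32240 UMIs) in WT adipocyte nuclei and at 1.59 CPM (1.10 to 2.23, 34 UMIs) in KO, a log2 ratio of -8.40 (-8.93 to -7.91), or 337 times lower. None of the 16273 genes with at least 50 UMIs over both libraries had a lower log2 ratio in adipocyte nuclei. A gene without KO UMIs was set at 3 UMIs, so genes low in WT could not have had a lower ratio. Of these genes, 18% were at least 2-fold lower and 18% at least 2-fold higher in KO, and the median log2 ratio was 0.06. Of the 5 genes, Dio2 and Thrsp were at least 2-fold lower, Thra was at least 2-fold higher, and Thrb and Slc16a10 lay between.

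The share of adipocyte nuclei with a Dio2 UMI was 82.9% (81.9 to 83.9) in WT and 0.738% (0.431 to 1.18) in KO, at median depths of 7371 and 6824 UMIs. With every nucleus thinned to 1000 UMIs, the shares were 37.2% and 0.217%, and no adipocyte nucleus was too shallow to be thinned. Among WT endothelial nuclei, Dio2 was found in 21.5% at a median of 2504.5 UMIs, and in 9.42% after thinning. WT adipocyte nuclei spread widely, with a median of 427 CPM per nucleus, 153 and 775 CPM at the 25th and 75th percentiles, and at most 85 Dio2 UMIs in a nucleus. In the whole KO library, 67 Dio2 UMIs fell in 38 of 11495 barcodes, with at most 8 in a barcode and 0 in the barcodes found in both libraries. In WT, 52.5% of barcodes held the transcript.

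In the other WT classes Dio2 was at 83.9 CPM in endothelial, 74.8 in ASPC, 73.6 in mural and 56.2 in immune nuclei. The intervals of neighbours in this order overlapped, whereas the adipocyte level lay above these 4. They were 10.5% to 15.6% of the adipocyte level, which is below the share of Ucp1 in each class and above that of Ppargc1a, so they cannot be told from the background of free RNA. In the small WT classes it was at 118 CPM in Schwann (18 UMIs), 215 in skeletal muscle (28 UMIs) and 345 CPM in red cell nuclei (8 UMIs, 149 to 680), whose interval reached the adipocyte level, and in KO it had 0 UMIs in all of them. The summed adipocyte markers of these WT classes were at 1994, 4680 and 5820 CPM, against 12099 CPM in adipocyte nuclei. The part of free RNA in these Dio2 levels was not tested. In KO, Dio2 had 11 UMIs in ASPC (1.60 CPM), 4 in immune (0.23 CPM), 1 in mural and 0 in 665 endothelial nuclei. The log2 ratio was -5.54 (-6.62 to -4.60) in ASPC and -7.94 (-9.84 to -6.54) in immune nuclei, and the WT endothelial level was at least 56.0-fold higher, with the KO class set at 3 UMIs, the limit that a count of 0 allows here throughout. By the same limit, 0 of 665 endothelial nuclei allow a share with a UMI of up to 0.451%, at a median depth of 2451 UMIs. Dio2 was thus lower in KO in each of the 5 classes, also in those to which the Cre is not directed. Among all genes in these classes, 8.88% (ASPC), 10.5% (endothelial), 10.6% (immune) and 8.02% (mural) were at least 2-fold lower in KO, and of the 5 genes Dio2 and Thrsp were so in each of these classes.

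**Figure D1:**
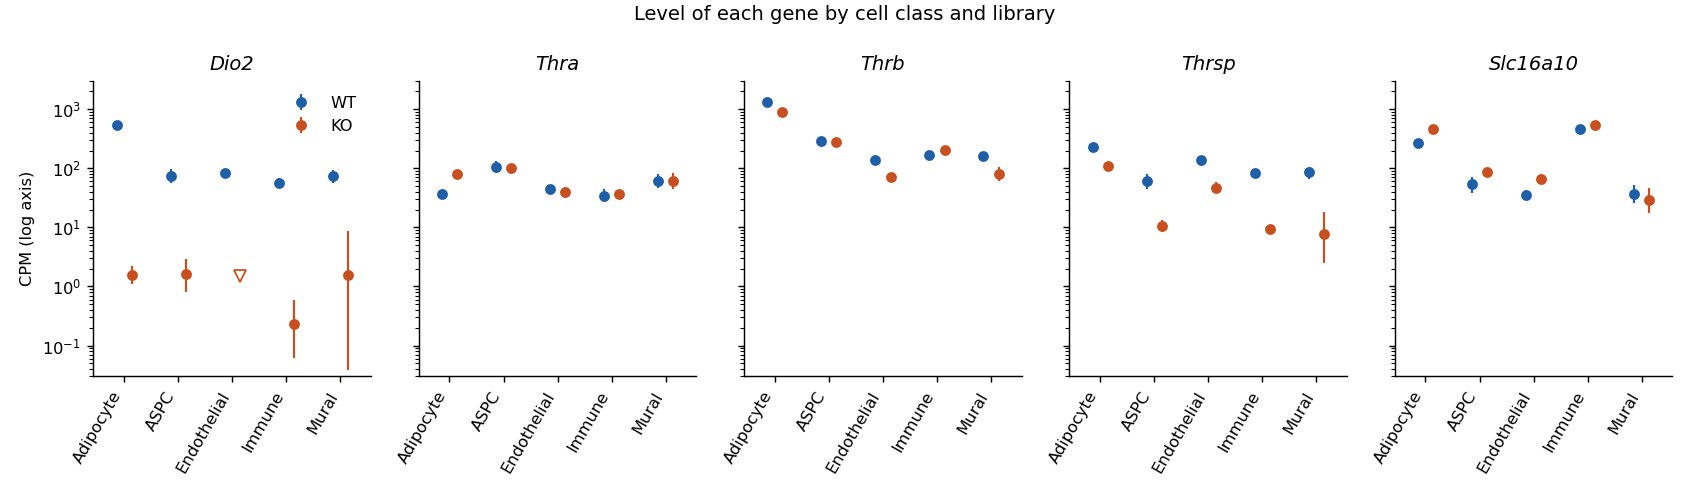
Level of the 5 genes (y axis, CPM, log axis) in 5 cell classes of the WT (blue) and KO (orange) libraries, with 95% counting intervals. The open triangle marks the level of 3 UMIs for Dio2 in KO endothelial nuclei, where it had 0 UMIs. Dio2 was at 536.8 CPM in WT and 1.59 CPM in KO adipocyte nuclei, while Slc16a10 was highest in immune nuclei of both libraries.

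Dio2 and Ppargc1a were next compared across the 5706 WT adipocyte nuclei. Their log-scaled levels (UMIs per 10000 of the nucleus) had a Pearson r of 0.35 and a Spearman rho of 0.35. This is a description of nuclei that share 1 library. The level of Dio2 itself had an r of 0.14 with the log of the UMIs of the nucleus. With the UMIs of the nucleus held constant, r was 0.35. Among the 2852 nuclei in the middle of the range of depth it was 0.37, and with 5055 nuclei thinned to 3000 UMIs, which left out 651, it was 0.29. Of 8136 genes found in at least 10% of these nuclei, the median r with Dio2 was 0.01 and the lowest -0.20, and Ppargc1a came second.

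The gene most like Dio2 was Gm26512 (r 0.39), a long non-coding RNA whose annotated start overlaps that of Dio2. It lies on the plus strand of chromosome 12, from 90738201 to 90869235, and its first 238 bases cover the first bases of Dio2 on the other strand. The RefSeq start site of Dio2, at 90739038, is 600 bases upstream of the GENCODE start and so also lies within Gm26512. It was found in 48.6% of WT adipocyte nuclei at 101 CPM, and at 0.47 CPM (10 UMIs) in KO, a log2 ratio of -7.75 (-8.81 to -6.87). Whether reads were counted by strand is not stated in the sources used here, so reads within the shared bases cannot be assigned. The others among the 5 most alike were Noct (r 0.34), which encodes the phosphatase nocturnin, Gk (0.33), which encodes glycerol kinase, and Irs2 (0.30), which encodes an adaptor of insulin receptor signalling. Their log2 ratios in KO were -0.83, -2.06 and -1.93. Ppargc1b, the paralogue of Ppargc1a, came 9th (0.28), Ucp1 25th (0.23) and Cidea 69th (0.19). Of the other members, Thrb had an r of 0.11 with Dio2, Thra of -0.03, Slc16a10 of -0.03 and Thrsp of -0.12. Thrsp ranked 8091 of 8136, near the end of the order.

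When the WT adipocyte nuclei were split into 4 groups of 1426 or 1427 by their share of Ppargc1a, Dio2 was at 345, 451, 544 and 782 CPM from the lowest to the highest group. The counting intervals of these 4 levels did not overlap. The share of nuclei with a Dio2 UMI went from 71.2% to 93.4%, at median depths between 7205 and 7840.5 UMIs. The summed adipocyte markers were at 12543 CPM in the lowest and 12444 CPM in the highest group. Ucp1 was at 1446 CPM in the lowest and 1912 CPM in the highest. Thrsp ran the other way, from 332 to 180 CPM, as did Thra, from 43.5 to 28.8 CPM, and Slc16a10, from 313 to 246 CPM. Thrb was at 1301 and 1435 CPM.

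Ppargc1a was itself at 4773 CPM in WT and 464 CPM in KO adipocyte nuclei. WT and KO nuclei were therefore also compared at like shares of Ppargc1a, in bins chosen after these levels had been seen. Among nuclei with under 500 CPM of Ppargc1a, Dio2 was at 227 CPM (210 to 245) in 380 WT nuclei and at 1.34 CPM (0.828 to 2.05) in 1648 KO nuclei. Between 1000 and 2000 CPM of Ppargc1a, it was at 421 CPM in 1046 WT nuclei and at 4.37 CPM (1.76 to 9.01, 7 UMIs) in 201 KO nuclei. Among the 107 KO nuclei between 2000 and 4000 CPM there was 1 Dio2 UMI, and among the 32 with 4000 CPM or more there was none, which allows up to 15.7 CPM (3 UMIs), against 671 CPM in 2344 WT nuclei. Dio2 was thus lower in KO than in WT nuclei in every bin of Ppargc1a.

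**Figure D2:**
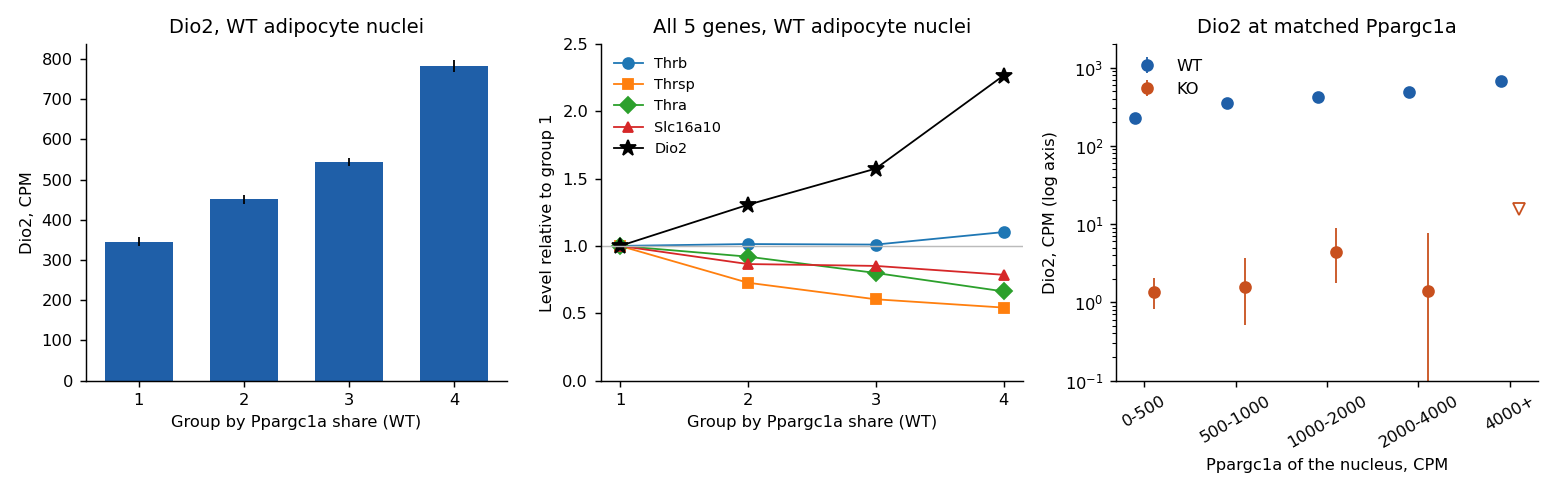
Left, Dio2 level (CPM, 95% counting intervals) in 4 groups of WT adipocyte nuclei by their Ppargc1a share. Middle, levels of the 5 genes relative to group 1, with Dio2 higher and Thrsp, Thra and Slc16a10 lower in group 4. Right, Dio2 (log axis) in WT and KO adipocyte nuclei in 5 bins of Ppargc1a, where WT lies between 227 and 671 CPM and KO at or under 4.37 CPM; the open triangle marks the level of 3 UMIs where there were 0, and an interval that reaches the axis continues below it.

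The 2 receptors differed in where they were found and in the direction of their ratios. Thrb (ENSMUSG00000021779, chromosome 14 from 17660261 to 18038090, plus strand) was highest of the 5 classes in adipocyte nuclei of both libraries, at 1340 CPM (1331 to 1350) in WT and 894 CPM (881 to 906) in KO. The log2 ratio was -0.58 (-0.61 to -0.56), which is short of 2-fold. After thinning to 1000 UMIs, 70.9% of WT and 53.9% of KO adipocyte nuclei held a Thrb UMI. ASPCs came second in both libraries, at 288 and 282 CPM, with a log2 ratio of -0.03 (-0.23 to 0.17). In the other WT classes Thrb was at 139 to 171 CPM, or 10.4% to 12.8% of the adipocyte level, near the shares of the adipocyte genes above. It was at 72.0 CPM in KO endothelial nuclei (log2 ratio -0.95, -1.23 to -0.68) and 80.4 CPM in KO mural nuclei (-0.9996, -1.49 to -0.53), and at 208 CPM in KO immune nuclei (0.28, 0.12 to 0.45). In the few skeletal muscle nuclei Thrb was at 852 CPM in WT (111 UMIs) and 1518 CPM in KO (1224 to 1862, 92 UMIs), above the KO adipocyte level. The mural value rests on 142 WT and 52 KO UMIs, and it turned to 1.02 when whole clusters were called in place of nuclei.

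Within Thrb lies Gm48321, an annotated antisense gene that shares 90772 bases with it. It was at 164 CPM in WT and 17.6 CPM in KO adipocyte nuclei, a log2 ratio of -3.22 (-3.37 to -3.07). Without strand in the counting, reads of these genes cannot be told apart, and the part of such reads in the Thrb level was not tested.

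Thra (ENSMUSG00000058756, chromosome 11 from 98740638 to 98769006, plus strand) was lower in WT adipocyte nuclei than in 3 of the 4 other classes. It was at 36.3 CPM (34.8 to 37.9) in WT and 80.5 CPM (76.7 to 84.4) in KO adipocyte nuclei, a log2 ratio of 1.15 (1.05 to 1.24). The thinned share of adipocyte nuclei with a Thra UMI was 3.45% (2.99 to 3.96) in WT and 7.08% (6.07 to 8.21) in KO. In the other classes the levels of the libraries lay close together, at 106 and 101 CPM in ASPC, 61.2 and 61.9 in mural, 45.2 and 39.0 in endothelial and 34.6 and 37.2 CPM in immune nuclei, and each of these log2 ratios had an interval that included 0. Among the 5 classes, an interval above 0 was thus found in adipocyte nuclei only, and the difference between classes was not tested. ASPC nuclei were highest of the 5 in both libraries, at 292% of the WT adipocyte level. Outside the 5 classes, the 48 WT Schwann nuclei were at 45.8 CPM on 7 UMIs. The 14 KO Schwann nuclei were at 208 CPM on 10 UMIs, and the intervals of these Schwann levels did not overlap. Thra was also higher in KO in skeletal muscle and red cell nuclei, on few UMIs and with intervals that overlapped. The summed ASPC markers of the Schwann nuclei were at 1105 CPM in WT and 2563 CPM in KO, and their part in these Thra levels was not tested. Whether the higher KO level was particular to adipocyte nuclei cannot be told from so few UMIs. Adipocyte nuclei ranked 4 of 5 in WT, where their interval overlapped that of immune nuclei, and 2 of 5 in KO. The 3′ end of Thra overlaps Nr1d1 on the other strand by 1075 bases. Nr1d1, which encodes the clock repressor REV-ERBα, was at 39.4 CPM in WT and 49.1 CPM in KO adipocyte nuclei, a log2 ratio of 0.32, and had log2 ratios from -1.22 to -0.50 in the other classes.

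Thrsp (ENSMUSG00000035686, chromosome 7 from 97412938 to 97417730, minus strand) was highest in adipocyte nuclei among the 5 classes and was lower in KO in each of them. It was at 231 CPM (227 to 235) in WT and 111 CPM (106 to 115) in KO adipocyte nuclei, a log2 ratio of -1.06 (-1.12 to -0.99), just past 2-fold. The thinned share of nuclei with a UMI was 21.0% in WT and 9.30% in KO. In WT it was at 137 CPM in endothelial, 85.0 in mural, 81.7 in immune and 61.1 in ASPC nuclei, which is 26.5% to 59.5% of the adipocyte level. These shares were above those of Ucp1 in the same classes, 19.7% to 33.4%. In KO the same classes were at 47.0, 7.74, 9.28 and 10.5 CPM. The log2 ratios there, from -1.55 in endothelial to -3.46 in mural nuclei, lay further from 0 than in adipocyte nuclei. The mural value rests on 5 KO UMIs (-5.12 to -2.17). In red cell nuclei it was at 259 CPM in WT (95 to 563, 6 UMIs) and 594 CPM in KO (438 to 788, 48 UMIs), above the KO adipocyte level. The summed adipocyte markers of red cell nuclei were at 5820 CPM in WT and 4011 CPM in KO. In adipocyte nuclei they were at 12099 and 10187 CPM, and the part of free RNA was not tested. The order within KO was adipocyte, endothelial and then the other 3, whose intervals overlapped. When the endothelial level was subtracted from the adipocyte level within each library, the log2 ratio of Thrsp in adipocyte nuclei was -0.55.

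Slc16a10 (ENSMUSG00000019838, chromosome 10 from 40033532 to 40142258, minus strand) had its higher levels in 2 of the 5 classes. It was highest in immune nuclei, at 455 CPM (426 to 485) in WT and 534 CPM (524 to 545) in KO, a log2 ratio of 0.23 (0.13 to 0.33). Adipocyte nuclei followed, at 272 CPM (268 to 276) and 469 CPM (460 to 478), a log2 ratio of 0.79 (0.75 to 0.82). The WT immune level was 167% of the adipocyte level and the KO immune level 114%. After thinning, 21.1% of WT and 32.6% of KO adipocyte nuclei held a UMI. In the 3 remaining classes the WT level was 35.4 to 53.6 CPM, or 13.03% to 19.7% of the adipocyte level, near the shares of the adipocyte genes above. In KO, these were at 85.1 CPM in ASPC, 66.5 in endothelial and 29.4 in mural nuclei. The log2 ratio was 0.67 (0.22 to 1.15) in ASPC and 0.91 (0.55 to 1.27) in endothelial nuclei. In mural nuclei it was -0.35, with an interval (-1.24 to 0.51) that included 0. Outside the 5 classes, the few skeletal muscle nuclei held Slc16a10 at 245 CPM in WT (168 to 347, 32 UMIs). In KO they held it at 330 CPM (202 to 510, 20 UMIs). Each interval included the adipocyte level of its library. WT red cell nuclei were at 172 CPM on 4 UMIs (47.0 to 442). The part of free RNA in these levels was not tested.

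**Figure D3:**
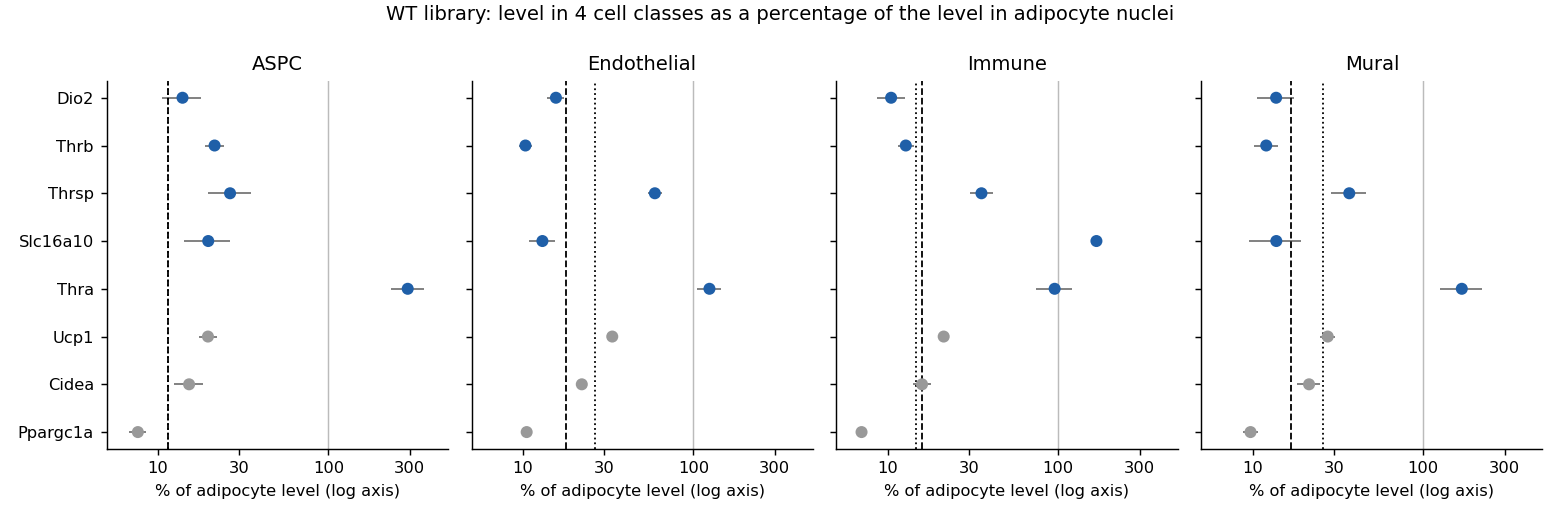
WT level of the 5 genes (blue) and of 3 thermogenic genes (grey) in 4 classes as a percentage of the level in adipocyte nuclei (x axis, log axis, 95% counting intervals). The dotted line is the summed adipocyte markers, the dashed line the same sum without Pparg and the pale line 100%. Dio2 lies at 10.5% to 15.6% in all 4 classes, Thrsp at 59.5% in endothelial nuclei, Slc16a10 at 167% in immune nuclei and Thra at 292% in ASPC nuclei.

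The wider pathway was read from a list of 53 genes in 10 roles, the 5 genes included. In adipocyte nuclei, 49 of them had at least 50 UMIs. At least 2-fold lower in KO were 13 (26.5%), and 8 (16.3%) were at least 2-fold higher, beside 18% each way over all genes. Without the 5 genes, 11 of 44 were lower and 7 higher, with a median log2 ratio of 0.02, against 0.06 over all genes. Its members lay on both sides of no difference within most roles.

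Among the transporters, Slco1c1, which encodes an anion carrier that takes up thyroxine, had 79 WT and 11 KO UMIs (log2 ratio -1.35, -2.41 to -0.44). Slc7a5, a large neutral amino acid carrier subunit, was at 0.32 CPM in WT and 5.15 CPM in KO (4.03, 3.31 to 4.81), on 19 and 110 UMIs. Its relative Slc7a8 had a log2 ratio of 0.93 and their shared heavy chain Slc3a2 of 0.33. Slc17a4 had no UMI in adipocyte nuclei of either library.

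Dio2 was the sole deiodinase with at least 50 UMIs in adipocyte nuclei. Dio1, the deiodinase of liver and kidney, had 0 UMIs in both libraries, and Dio3, which inactivates the hormone, had 0 in WT and 1 in KO, and the cytosolic binding protein Crym had 5 in each. Of 6 genes of deiodinase synthesis and turnover, Sephs2, which makes the selenium donor of selenoproteins, was at 32.3 CPM in WT and 10.2 CPM in KO (-1.66, -1.87 to -1.46). Usp20, which encodes a deubiquitinase of the type 2 enzyme, was at 18.9 and 41.2 CPM (1.12, 0.99 to 1.25). Between these limits lay the other deubiquitinase Usp33 (-0.65), the ubiquitin ligases Wsb1 (0.55) and March6 (-0.05), and Secisbp2 (-0.18), whose product reads selenocysteine codons.

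Of the retinoid X receptors that pair with TRα and TRβ, Rxrg was at 40.6 CPM in WT and 9.23 CPM in KO (-2.14, -2.36 to -1.93) and Rxrb at 32.6 and 14.2 CPM (-1.19, -1.37 to -1.02), while Rxra was at 22.1 and 54.5 CPM (1.30, 1.19 to 1.42). None of 5 corepressor genes passed 2-fold, beside 18% each way over all genes. Their log2 ratios ran from -0.60 (Gps2) to 0.29 (Tbl1x). Of 8 coactivators, 2 were at least 2-fold lower, beside 18% of all genes. These were Ppargc1a (-3.36) and Ppargc1b, at 2483 CPM in WT and 640 CPM in KO (-1.96, -1.98 to -1.93). Ncoa1 lay at -0.98, just inside the limit.

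Upstream of Dio2, 4 of 7 genes were at least 2-fold lower, beside 18% of all genes. Gnas, which encodes the stimulatory G protein subunit, was at 1968 CPM in WT and 259 CPM in KO (-2.92, -2.96 to -2.88), Adcy3, an adenylyl cyclase, at 485 and 90.0 CPM (-2.43), the β3 adrenergic receptor gene Adrb3 at 307 and 119 CPM (-1.36), and the cAMP response modulator Crem at 135 and 62.3 CPM (-1.11). Creb1, which encodes a factor that binds cAMP response elements, lay at 0.23. Tshr, the thyrotropin receptor gene, went the other way, at 43.4 CPM in WT and 434 CPM in KO, a log2 ratio of 3.32 (3.26 to 3.39).

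Of 12 genes known as targets of the hormone, 2 were lower and 3 higher, beside 18% each way over all genes. Ucp1 was at 1650 CPM in WT and 58.6 CPM in KO (-4.81, -4.90 to -4.73), and Thrsp is given above. Hr, which encodes the nuclear corepressor hairless, was at 2.13 CPM in WT and 37.7 CPM in KO (4.14, 3.87 to 4.43), on 128 and 805 UMIs. Me1, the cytosolic malic enzyme gene, was at 191 and 638 CPM (1.74, 1.70 to 1.77) and Srebf1, the lipogenic transcription factor gene, at 46.5 and 104 CPM (1.16, 1.08 to 1.24). The other 7 lay between, from Gpd2 (-0.92), which encodes the mitochondrial glycerol phosphate dehydrogenase, to Acaca (0.82), which encodes acetyl-CoA carboxylase. Genes known as targets of the hormone thus lay on both sides of no difference.

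**Figure D4:**
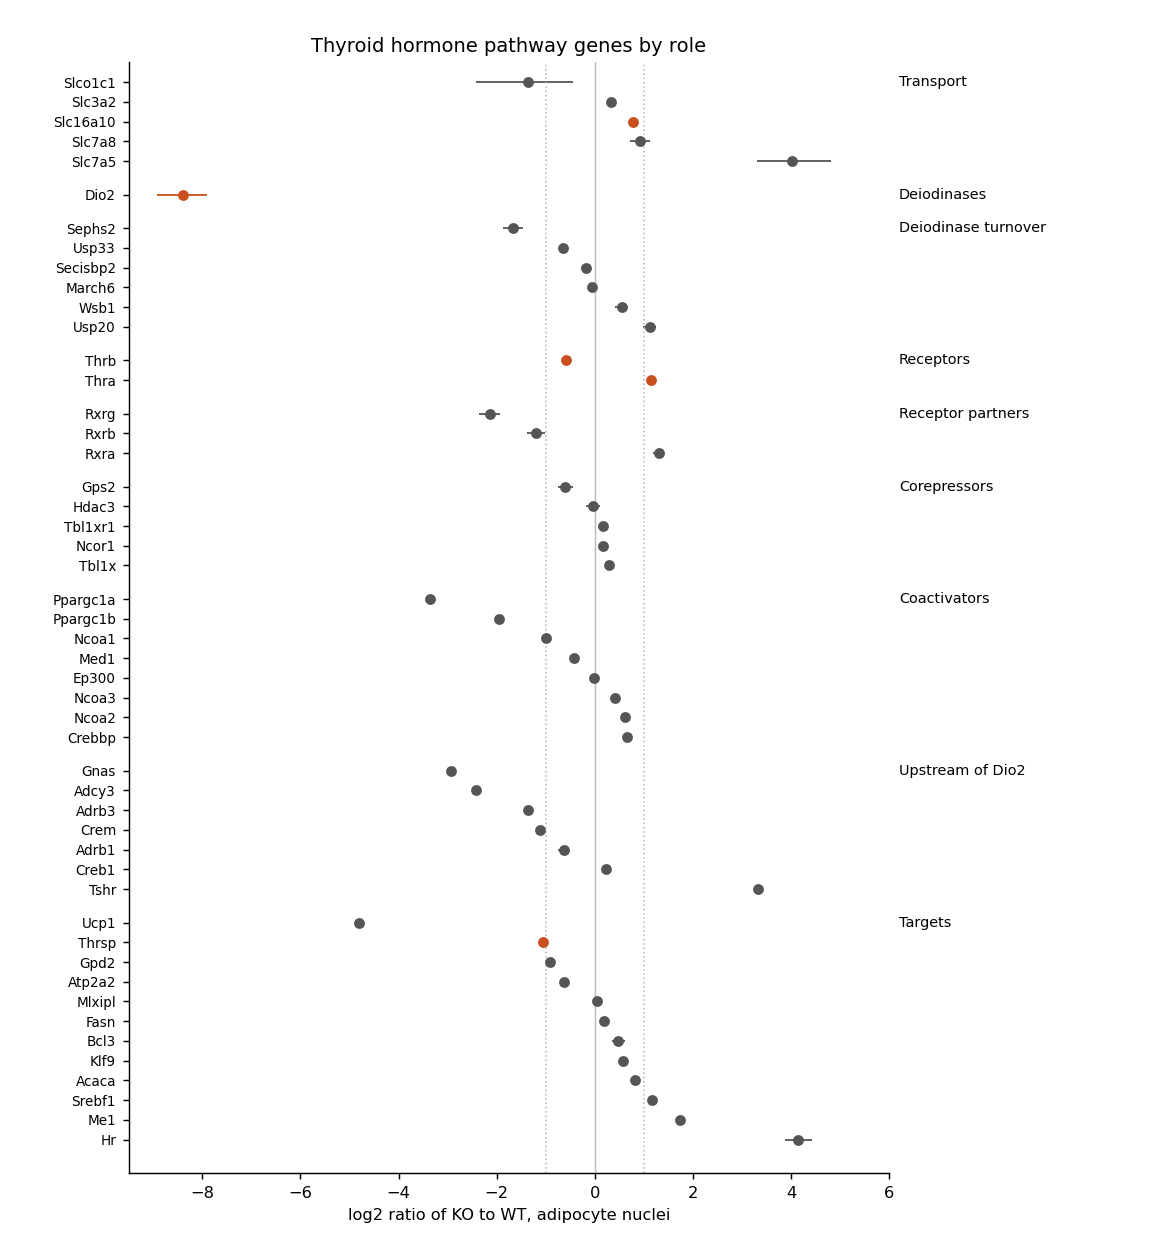
log2 ratio of KO to WT in adipocyte nuclei (x axis) for the 49 pathway genes with at least 50 UMIs, grouped by role and ordered by ratio, with 95% counting intervals. Orange points are the 5 genes described, and dotted lines mark 2-fold. Dio2 lies furthest from 0, and Slc7a5, Hr and Tshr lie furthest to the right.

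In the other classes the list held fewer genes with enough UMIs. At least 2-fold lower in KO were 9 of 43 in ASPC, 11 of 44 in endothelial, 10 of 46 in immune and 8 of 35 in mural nuclei, and 2, 1, 2 and 0 were at least 2-fold higher. Dio2, Thrsp, Ucp1, Fasn, Mlxipl, Ppargc1a and Ppargc1b were among the lower genes in each of these classes. The part of free RNA in these counts was not tested. Over all genes, 8.88%, 10.5%, 10.6% and 8.02% were at least 2-fold lower in these classes and 5.6%, 2.9%, 6.45% and 3.31% at least 2-fold higher. Among nuclei left without a class, Dio2 was at 270 CPM in WT and 0.41 CPM in KO, Thrb at 575 and 426, Thrsp at 216 and 40.8, Slc16a10 at 155 and 364 and Thra at 45.0 and 62.0 CPM, in the same directions as in adipocyte nuclei. The make-up of these nuclei differed between the libraries. Their summed adipocyte markers were at 6635 CPM in WT and 3900 CPM in KO. Their summed immune markers were at 1067 CPM in WT and 2473 CPM in KO. The part of this make-up in the levels was not tested.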

How the data were processed

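The authors demultiplexed droplet barcodes of snRNA-seq libraries, aligned reads to GRCm38 (mm10) with STAR and deposited raw UMI counts per gene and barcode, without normalization, for 1 WT and 1 KO library. The submitters' processing notes name Cell Ranger 5.0.0 and Seurat 3.1.1, while the study's methods give an earlier Cell Ranger version, and which of these made the files was not settled. Use of intronic reads and of strand is not given in the sources used here. The bulk data of the study were not analysed here.

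Limits on nuclei were 200 genes or more, no more than 10% mitochondrial UMIs, and log UMIs and log genes no further than 3 scaled median absolute deviations from the median of the library, which kept 12771 WT and 11378 KO nuclei. Each took the class with the highest marker sum, after division by the mean of that list in its 50 highest nuclei, given at least 1500 UMIs, 5 marker UMIs, a score of 0.2 and a lead of 2 times over the second class. This left 60.9% of WT and 65.0% of KO nuclei with a class; mixed nuclei fail the lead, and no doublet caller was run. Several such rules were tried, and these limits were set, after the data had been seen, on marker levels and agreement with clusters; levels of the 5 genes under a first rule had been printed by then. The genes, lists and roles were chosen with earlier results of these data known.

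Counts were summed per class and library and scaled to CPM. Intervals are exact Poisson (levels), Clopper-Pearson (shares) and conditional binomial (ratios), at 95%. A count of 0 was set at 3 UMIs, or 3 nuclei for a share, as its upper limit, also for shares of genes past 2-fold, with at least 50 UMIs over both libraries. Depth was a median of 3439.5 UMIs per barcode in WT and 4363 in KO. Every gene of transport, deiodination, receptors and their partners was named, apart from listed genes that are not reported here and enter no pathway count; of other roles, those with at least 200 UMIs and up to 4 each way by ratio, with some within 2-fold named as the ends of a range or as counterparts, chosen after their values were seen. Genes most like Dio2 were the 5 highest by Pearson r among genes in at least 10% of WT adipocyte nuclei. Alternatives are given in the closing section. Scripts were tested on simulated data. Places are from GENCODE vM21, promoters from RefSeq (GRCm38.p6). Tools were matplotlib 3.10.9, scikit-learn 1.9.0, scipy 1.17.1, igraph 0.11.9, pandas 2.3.3, numpy 2.4.6 and Python 3.11.15.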

Additional observations from a re-analysis of the deposited data

Results flagged for a closer look

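Thrb lay on opposite sides of no difference in different classes. The log2 ratio was -0.58 in adipocyte, -0.95 in endothelial and -0.9996 in mural nuclei, and 0.28 in immune nuclei, with counting intervals that did not include 0. The difference between the classes was not tested, since there was 1 library per genotype. WT Thrb in immune, mural and endothelial nuclei was at 10.4% to 12.8% of the adipocyte level, near the shares of adipocyte genes in the same classes. In KO the immune share of Thrb was 23.3% (22.4 to 24.1) of the adipocyte level and the endothelial share 8.06%. In KO immune nuclei, Ucp1 was at 9.47%, Cidea at 6.59%, Ppargc1a at 8.06% and the summed adipocyte markers at 16.6%, all below Thrb. In KO endothelial nuclei these were at 23.0%, 9.43%, 11.1% and 21.3%, all above Thrb. The part of free RNA in these values was not tested.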

How the results depend on the processing

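No paired analysis was possible because there was 1 library per genotype. In adipocyte nuclei the 5 log2 ratios kept their sign under each alternative that gave a value: Dio2 from -8.71 to -8.15, Thra from 1.08 to 1.23, Thrb from -0.65 to -0.40, Thrsp from -1.12 to -0.55 and Slc16a10 from 0.72 to 0.87. Thrsp passed 2-fold in 10 of 11 settings and not with the endothelial level subtracted (-0.55). With that subtraction Thra gave no ratio, since its WT endothelial level was the higher one. Thrb was -0.55 with limits of 500 to 5000 genes and 5% mitochondrial UMIs, -0.54 with a lead of 3 times, -0.40 with Leiden clusters called as units, -0.53 as a mean over nuclei, -0.65 when centred on the median ratio and -0.55 with the endothelial level subtracted. Slc16a10 was 0.84 with the limits on genes, 0.87 with clusters and 0.72 when centred, and Thrsp was -1.12 when centred. The adipocyte rank of Thra in WT was 5 with the limits on genes and with the stricter lead, and 3 of 4 with the endothelial level subtracted. The share of WT adipocyte nuclei with a Dio2 UMI was 37.2% thinned to 1000 UMIs, 57.0% at 2000 UMIs and 82.9% unthinned. With clusters it was 35.3%, thinned to 1000 UMIs. In KO the share was 0.217% thinned to 1000 UMIs and 0.738% unthinned. With clusters it was 0%, thinned to 1000 UMIs. The r of Dio2 with Ppargc1a was 0.32 with clusters and 0.29 thinned. At a limit of 1.5-fold, 28.9% of all genes and 13 of the 49 pathway genes were higher, against 18% and 8 at 2-fold. The lower side at 1.5-fold is not given here. In the other classes, 176 of 188 ratios kept their sign, and Thrb in mural nuclei turned to 1.02 with clusters. Call minimums of 1000 UMIs or a score of 0.15, and leaving out the barcodes found in both libraries, were added after the data had been seen. The causes of these shifts were not tested. Mural and WT ASPC nuclei were few, and their low counts limit what can be said of them.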
